A study of Mus musculus with 15 samples.

Results

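Splenic Ly6C+ monocytes (Ly6Chi monocytes) were set against CD11b+ dendritic cells (DCs) of the lung-draining lymph nodes (LNs) to ask which genes of monocytes remain in node CD11b+ DCs and at which level. The comparison used 6 libraries, 3 of each subtype, and took the 13133 genes with more than 1 CPM (the count scaled to the library's total) in at least 3 of them, out of 38924 gene identifiers in the count table. No measured difference between the groups entered this choice. RNA-seq had been done on mononuclear phagocytes of the mouse, and 15 libraries of 5 subtypes (both groups above, LN CD103+ DCs, splenic CD4+ DCs and splenic CD8+ DCs) entered the fitted model. Every library of either group held cells pooled from 5 naïve female C57BL/6 mice, whose age was 6 to 8 weeks by the sample descriptions, and no allele or agent was named for any group. The monocytes were gated as Ly6Chi cells with low MHC class II after enrichment on CD11b beads. The LN DCs were gated as CD11c+ cells with high MHC class II that carried CD11b and lacked CD103, after enrichment on CD11c beads. These cells are the migratory DCs of the node, as against the DCs that reside there. Spleens and LNs came from different cohorts of mice. Organ, cohort, beads, gate and the number of sequencing runs (2 for each monocyte library and 1 for each DC library) therefore cannot be told apart from cell type in this comparison. In bulk libraries of this kind, fewer cells of a type and less RNA per cell cannot be told apart either.

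Ly6Chi monocytes are made in the bone marrow under the receptor for macrophage colony-stimulating factor, leave it through the chemokine receptor CCR2, patrol tissues and lymph nodes, and can become macrophages or DC-like cells. Conventional DCs come instead from a precursor that depends on the receptor FLT3, and the CD11b+ subset (DC2) shares several surface molecules with monocytes, among them CD11b and SIRPα. When a DC of the lung matures it raises CCR7, moves through lymph to the node and presents antigen to T cells there.

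Between 4531243 and 10233914 reads per library had been counted for genes, and 15222 to 17693 genes had a read. LN CD11b+ DC replicate 3 was the shallowest of the 6 libraries. Libraries of different groups differed by a root mean square of 1.89 on the log2 CPM scale (1.81 to 1.93 over 9 pairs), against 0.519 within monocytes and 0.680 within LN CD11b+ DCs. Defining genes that were not gated on were compared with the labels. Flt3, the receptor of the DC growth factor, lay at 50.03 to 114 CPM in monocytes and 740 to 1005 CPM in LN CD11b+ DCs, and Zbtb46, a transcription factor of conventional DCs, at 6.32 to 7.34 CPM against 332 to 420 CPM. The 12 markers of monocytes summed to 25740 to 28060 CPM in monocytes and 1615 to 2712 CPM in LN CD11b+ DCs. Markers of other cells were not absent. The 12 markers of neutrophils summed to 244 to 382 CPM in monocytes and 0.321 to 5.77 CPM in LN CD11b+ DCs, where 9 of them had no count. The 12 markers of T cells summed to 396 to 573 CPM in LN CD11b+ DCs and 0.966 to 1.81 CPM in monocytes, where Cd3e, Trac, Trbc2 and Cd8b1 had no count. Most of the T cell sum came from Il7r and Tcf7, and the receptor gene Trac lay at 3.85 to 5.99 CPM. Of the other lists, B cells (9 of 10 genes measured) summed to 323 to 415 CPM in monocytes and 217 to 385 CPM in LN CD11b+ DCs, NK cells (8 genes) to 18 to 31.9 and 45.8 to 63.7 CPM, erythroid cells (7 of 8 genes) to 3.999 to 5.601 and 11.9 to 58.2 CPM, plasmacytoid DCs (8 genes) to 155 to 188 and 130 to 195 CPM, and stromal cells (8 genes) to 10.6 to 20.3 and 50.2 to 106 CPM. Most of the B cell sums came from Ighm, with means of 343 CPM in monocytes and 217 CPM in LN CD11b+ DCs. The 9 markers of CD103+ or CD8+ DCs (DC1) summed to 639 to 741 CPM in monocytes, most of it Irf8, and to 367 to 544 CPM in LN CD11b+ DCs. None of these lists was made for monocytes low in Ly6C. The part of any of these cells in the differences below was not tested, except where a value is given.

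Differences were given on the log2 scale as LN CD11b+ DCs minus monocytes, with the standard error (SE) of the fit, and n was 3 libraries in each group throughout. All adjusted p values came from edgeR's quasi-likelihood test with Benjamini-Hochberg adjustment over the 13133 genes, and the threshold was 0.05. Of these genes, 6556 passed the threshold, which was 49.9% (26.9% higher and 23.0% lower in LN CD11b+ DCs). There were 3532 genes higher in LN CD11b+ DCs and 3024 higher in monocytes. The median difference of all genes was 0.02. At 4-fold or more, 1671 genes were higher in LN CD11b+ DCs and 907 were higher in monocytes, and at 64-fold or more the numbers were 488 and 53. In 8284 genes (63.1%), every library of one group lay above every library of the other (31.7% with LN CD11b+ DCs and 31.4% with monocytes above). Of the 10630 genes with more than 1 CPM in both groups, 2327 were higher in LN CD11b+ DCs, 2669 were lower and 5634 did not pass. The difference between the groups was thus a broad one, and a count within any gene list has to be read against these shares and counts.

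**Figure D1:**
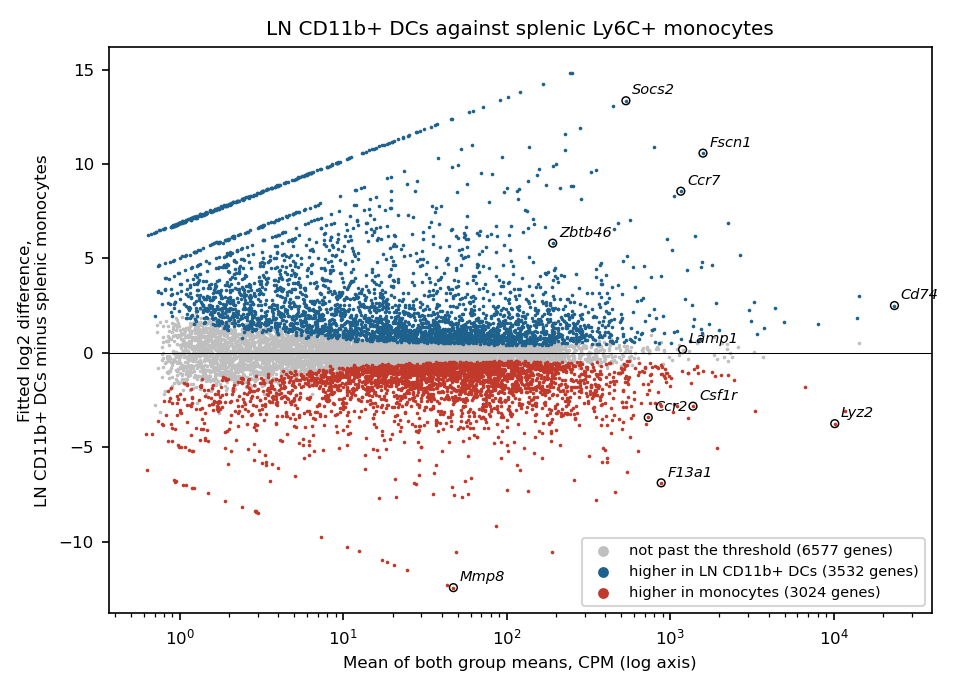
Each point is 1 of the 13133 genes tested, with its mean level in CPM on a log axis and the fitted log2 difference of LN CD11b+ DCs minus splenic monocytes on the vertical axis. The 3532 genes higher in LN CD11b+ DCs reach larger differences than the 3024 genes higher in monocytes, and the diagonal streaks are genes with no or very few counts in one group, whose fitted difference depends on a prior count.

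To say which monocyte genes remained, the 8348 genes whose monocyte mean reached 10 CPM were sorted by their difference. In 3271 of them (39.2%, or 24.9% of all genes tested) the 95% interval of the difference lay within 2-fold either way, and these were called kept. A narrower limit of 1.5-fold left 700. Of the rest, 2443 genes (29.3%) were reduced, meaning lower past the threshold but above 1 CPM in every LN CD11b+ DC library, and 589 of the 2443 were at least 4-fold lower. A further 34 genes (0.407%, or 0.259% of all genes tested) were lost, meaning lower past the threshold and at or below 1 CPM in all 3 LN CD11b+ DC libraries. Another 1462 genes (17.5%) were higher, and 1138 (13.6%) fell in none of these classes.

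Most surface receptors of monocytes were reduced, and none of those listed was lost. All 24 members of the surface and migration list were tested, all with more than 1 CPM in both groups, and 21 were lower in LN CD11b+ DCs, 2 were higher and 1 did not pass the threshold, with a median of -3.16 against 0.02 for all genes. For all 10630 genes with more than 1 CPM in both groups, the counts were 2669 lower and 2327 higher. LN CD103+ DCs were the second subtype of the same nodes, and against them 18 of the 24 were higher in LN CD11b+ DCs and 1 was lower, while 8.33% of all genes tested were higher in LN CD11b+ DCs and 5.34% lower. The comparisons with monocytes and with LN CD103+ DCs share the LN CD11b+ DC libraries. LN CD103+ DC libraries did not enter the filter, so a gene above 1 CPM in them alone was not tested. The shares of all genes against LN CD103+ DCs carry this limit.

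Ccr2 (ENSMUSG00000049103, chr9:124101950-124113557 of mm10), the receptor with which monocytes leave the bone marrow, stood at 1265, 1392 and 1369 CPM in monocytes and 156, 117 and 102 CPM in LN CD11b+ DCs. The groups were far apart, but LN CD11b+ DCs also stood above LN CD103+ DCs, which had a mean of 10.05 CPM. The difference from monocytes was -3.42 ± 0.25 (adjusted p = 7.05e-09) and that from LN CD103+ DCs was 3.65 (adjusted p = 1.37e-07). Cx3cr1 (ENSMUSG00000052336, chr9:119901616-120068283), the fractalkine receptor, took the same order, with 501, 491 and 557 CPM in monocytes, 41.8, 34.2 and 33.1 CPM in LN CD11b+ DCs and a mean of 2.11 CPM in LN CD103+ DCs. Csf1r, the receptor of macrophage colony-stimulating factor, was at 2380, 2487 and 2375 CPM in monocytes, and at 346, 323 and 353 CPM in LN CD11b+ DCs. These 3 node libraries were close to each other, and LN CD103+ DCs had a mean of 13.4 CPM. Reads on 17.8% of the exon length of Csf1r could also be counted for an overlapping gene. Cd14, a coreceptor for bacterial lipopolysaccharide, fell from 780, 783 and 919 CPM to 104, 70.6 and 78.7 CPM (-3.29 ± 0.24, adjusted p = 8.82e-09).

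Fc receptors moved the same way. Fcgr1, which encodes the high-affinity IgG receptor CD64, fell by 3.03 ± 0.37 (adjusted p = 3.56e-06), from 113, 136 and 144 CPM in monocytes to 21.5, 16.6 and 9.32 CPM. Fcgr3 fell by 3.63 ± 0.27 (adjusted p = 1.03e-08). Adgre1, the gene of F4/80, was lower by 1.79 ± 0.36 (adjusted p = 4.68e-04), with 92.9 to 138 CPM in LN CD11b+ DCs against 366 to 454 CPM in monocytes. LN CD103+ DCs had 0.602 CPM of Fcgr1 and 6.396 CPM of Adgre1 on average. The surface genes with the least left were Ace, the angiotensin-converting enzyme, which fell from 840, 1187 and 716 CPM to 3.53, 7.30 and 5.99 CPM, and the genes of the Ly6C antigen itself. Ly6c2 was at 739, 693 and 997 CPM in monocytes and 15.9, 11.7 and 17.3 CPM in LN CD11b+ DCs. Since the monocytes were sorted on Ly6C, this is no finding, and reads of Ly6c2 and its near-identical neighbour Ly6c1 may have been split between them. Itgam, which encodes CD11b and for which both populations had been selected, was at 1045, 1033 and 1155 CPM in monocytes and at 122, 89.3 and 118 CPM in LN CD11b+ DCs. LN CD103+ DCs, gated without CD11b, had 2.56 CPM.

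Exceptions were few. Mertk, a receptor for the uptake of apoptotic cells that is known from macrophages, was higher in LN CD11b+ DCs, at 24.2, 31.4 and 12.2 CPM against 1.35, 2.86 and 1.81 CPM (3.44 ± 0.41, adjusted p = 1.59e-06). C3ar1, a receptor of the complement fragment C3a, was higher as well (2.67 ± 0.58, adjusted p = 0.00114). Itga4, an integrin chain used to cross vessel walls, was lower by less than 2-fold (-0.76 ± 0.18, adjusted p = 0.00148), with 501 to 545 CPM left of 849 to 894 CPM. Cd36, a scavenger receptor, had 32.5 to 57.4 CPM in monocytes and 29.2 to 38.6 CPM in LN CD11b+ DCs, which overlapped (-0.48 ± 0.31, adjusted p = 0.205).

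**Figure D2:**
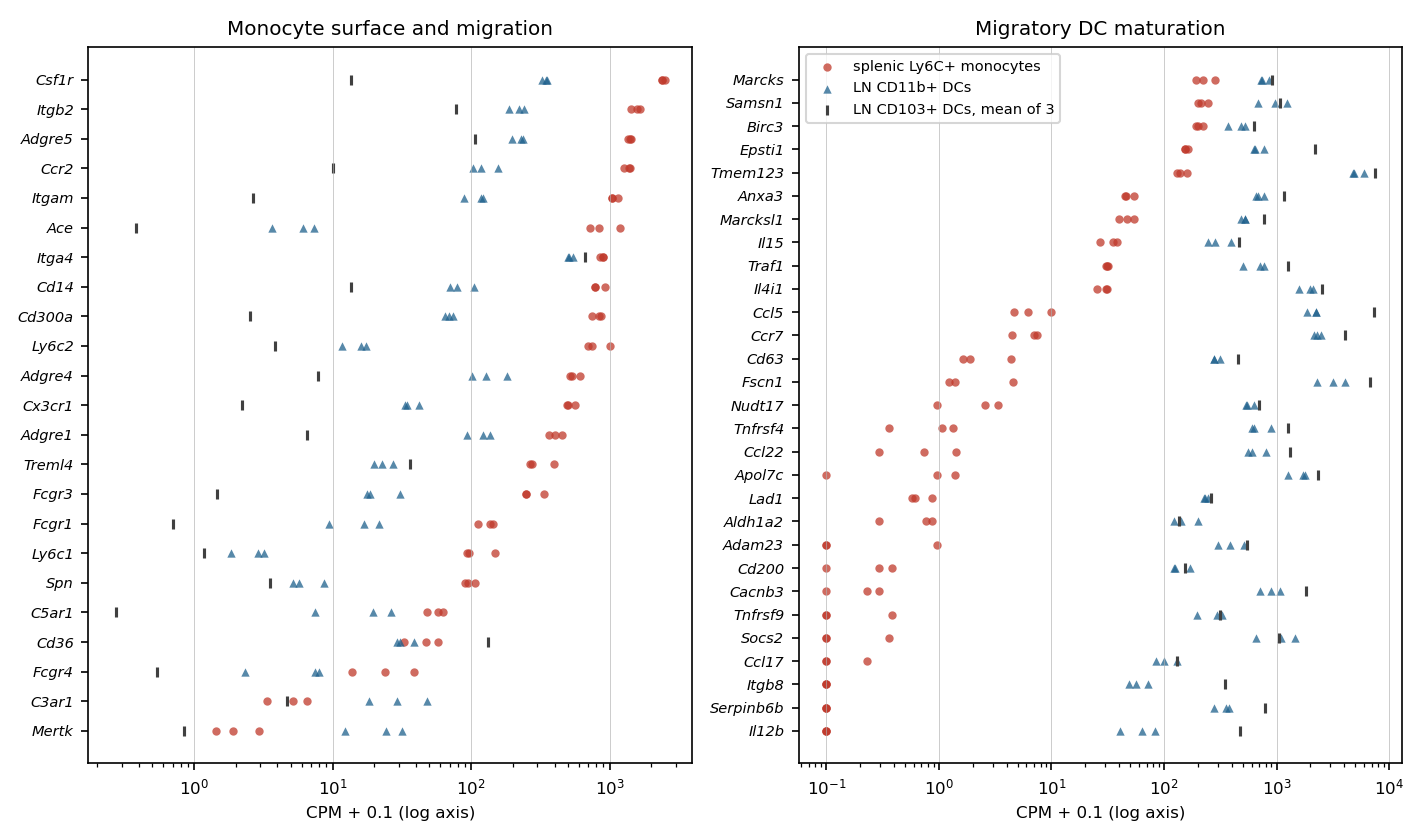
The plot gives the level of the members reported here of 2 lists in each of the 6 libraries (CPM + 0.1 on a log axis), with red circles for splenic Ly6C+ monocytes, blue triangles for LN CD11b+ DCs and a black bar for the mean of 3 LN CD103+ DC libraries. Among surface genes the LN CD11b+ DCs mostly sit between LN CD103+ DCs and monocytes, as for Csf1r, Ccr2 and Cx3cr1, and in the maturation list both node subtypes lie above the monocytes.

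Secreted and effector genes of monocytes were mostly lower as well. Of 28 members, Ms4a3 and Mmp9 stayed below the filter, and 3 of the 26 tested passed it through monocytes only. Of the 23 with more than 1 CPM in both groups, 20 were lower in LN CD11b+ DCs and 3 did not pass the threshold. Among all 10630 genes with more than 1 CPM in both groups, 2669 were lower. Lyz2 (ENSMUSG00000069516, chr10:117277334-117282274), which encodes the lysozyme of myeloid cells, was the most abundant of them, with 18149, 18906 and 19611 CPM in monocytes and 1837, 909 and 1473 CPM in LN CD11b+ DCs (-3.75 ± 0.31, adjusted p = 4.82e-08). It was also the most abundant nuclear gene of monocytes per length, at a mean of 39274 TPM (a level scaled to gene length and library total), and had 2700 TPM in LN CD11b+ DCs, where Cd74, the invariant chain of MHC class II, was the most abundant at 67272 TPM. The LN CD103+ DCs had a mean of 80.4 CPM of Lyz2. Fn1, which encodes fibronectin, was at 4116, 2844 and 4361 CPM in monocytes and 133, 94.6 and 117 CPM in LN CD11b+ DCs (-5.04 ± 0.44, adjusted p = 1.82e-07). F13a1 (ENSMUSG00000039109, chr13:36867178-37050244), the A chain of clotting factor XIII, was at 1755, 1563 and 1920 CPM in monocytes and 23.0, 11.4 and 9.09 CPM in LN CD11b+ DCs. Its difference was -6.88 (adjusted p = 1.25e-09), without an SE because splenic CD8+ DCs in the same model had no count. Haptoglobin (Hp) and the chitinase-like gene Chil3 followed, with 2.77 to 3.53 and 12.99 to 20.97 CPM left of 581 to 783 and 658 to 928 CPM.

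Other effectors were reduced by less. Complement C3 had 177 to 190 CPM left of 848 to 1008 CPM (-2.31 ± 0.34, adjusted p = 2.81e-05). Tgfbi, an extracellular matrix protein induced by TGF-β, was at 178 to 308 CPM against 1291 to 1728 CPM, and Cybb, the catalytic subunit of the phagocyte NADPH oxidase, at 192 to 234 CPM against 1788 to 1933 CPM (-3.14 ± 0.34, adjusted p = 1.07e-06). Ncf1, another subunit of the oxidase, was kept, at 196, 186 and 257 CPM in monocytes and 225, 175 and 204 CPM in LN CD11b+ DCs (-0.08 ± 0.27, adjusted p = 0.821). S100a4, a calcium-binding protein, was kept too (0.11 ± 0.37, adjusted p = 0.823), with 258 to 287 CPM in monocytes and 248 to 365 CPM in LN CD11b+ DCs. Cfp, or properdin, which stabilizes the complement convertase, did not pass the threshold (0.60 ± 0.29, adjusted p = 0.101), although its 134 to 200 CPM in monocytes lay below the 219 to 284 CPM of LN CD11b+ DCs. In an edgeR fit over the 6 libraries alone, Cfp passed as higher (0.62, adjusted p = 0.0134). LN CD103+ DCs had 22.0 CPM of it, lower than LN CD11b+ DCs by 3.46 (adjusted p = 8.72e-07).

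The fitted fold changes toward monocytes were largest for 8 genes, among them products of granules: Mmp8, S1pr5, Ltf, S100a8, S100a9, Rab44, Ngp and Cd177, all 8 of them in the class lost. Mmp8 encodes neutrophil collagenase, and its 85.4, 82.6 and 115 CPM in monocytes stood against no count in LN CD11b+ DCs, which made it at least 651-fold lower there, with 3 counts over the group in place of 0. S1pr5, a sphingosine-1-phosphate receptor, was at 81.2 to 90.0 CPM and at least 597-fold lower, and lactoferrin (Ltf) was at 41.6 to 57.1 CPM and at least 337-fold lower. S100a8 and S100a9, the subunits of calprotectin, had 35.2, 36.0 and 52.1 CPM and 28.8, 36.2 and 46.6 CPM, and were at least 284-fold and 257-fold lower. Ngp, neutrophilic granule protein, had 78.8 to 132 CPM in monocytes and 1 count in LN CD11b+ DCs, a ratio of 2016 with a 95% counting interval of 362 to 79624. Cd177 (ENSMUSG00000052212, chr7:24743985-24760311), a surface protein known from neutrophils, had 399, 325 and 413 CPM in monocytes and 0.321, 0 and 0.444 CPM in LN CD11b+ DCs. The limits and the interval cover no error but that of counting. Mmp8, Ngp and Ltf were also among the neutrophil markers that moved with the monocyte libraries. Of the defining genes of mature neutrophils in that list, Ly6g, Retnlg and Cxcr2 were each below 1 CPM in all 3 monocyte libraries. Mpo, another member of the list, was at 1.14 to 4.51 CPM in them. The part of neutrophils or of their precursors in these values was not tested. Besides Cd177, Ngp and Mmp8, the genes of the class lost with the highest level in monocytes were Arhgef37, a guanine nucleotide exchange factor, with 159 to 181 CPM, which DESeq2 did not call (-9.64, adjusted p = 0.0629), and Gm11651, with 83.8 to 116 CPM, which shares 19.3% of its exon length with Ace.

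The level that remained was not one common share of the monocyte level. Of 10 monocyte markers, LN CD11b+ DCs had 31.6% of the monocyte level for the complement receptor C5ar1, 14.1% for Csf1r, 12.1% for Fcgr1, 10.2% for Cd14 and 9.33% for Ccr2. Lyz2 had 7.44%, Ly6c2 1.85% and F13a1 0.830%, while S100a8 and S100a9 had no count, which allows up to 0.353% and 0.390% of the monocyte level. The range over the 3 LN CD11b+ DC libraries was narrow for Csf1r (13.4% to 14.6%) and wide for C5ar1 (13.1% to 47.1%). The call of C5ar1 as lower than in monocytes (-1.64 ± 0.52, adjusted p = 0.0146) was lost without monocyte replicate 2 (adjusted p = 0.0531) and without LN CD11b+ DC replicate 3 (adjusted p = 0.0582), and with DESeq2 (-1.65, adjusted p = 0.257). In LN CD103+ DCs, all 10 were at 1.64% or less. The order of the markers by remaining share was thus from C5ar1 down to the calprotectin genes, and the part of monocytes sorted with the DCs was not tested.

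**Figure D3:**
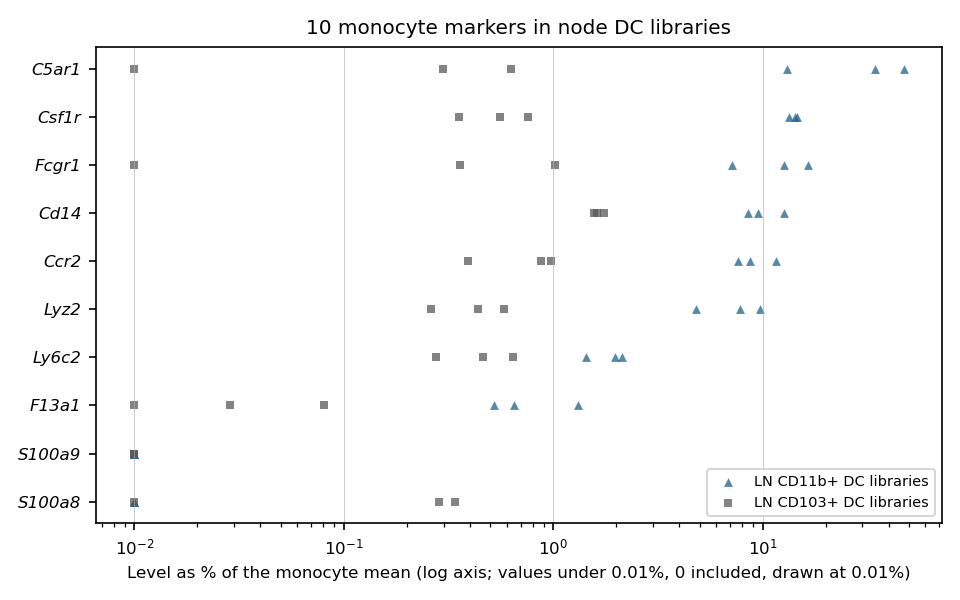
The level of 10 monocyte markers in each LN CD11b+ DC library (triangles) and LN CD103+ DC library (squares) is plotted as a percentage of the mean of the monocyte libraries, on a log axis. The LN CD11b+ DC libraries range from no count of S100a8 and S100a9 to 47.1% for C5ar1, and they lie above the LN CD103+ DC libraries for Csf1r, Ccr2, Cd14, Fcgr1, Lyz2, Ly6c2, F13a1 and C5ar1.

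Which genes mark monocytes was next read from the spleen alone, where organ was held. In the 9 splenic libraries, 1079 genes were higher in monocytes than in CD4+ DCs and than in CD8+ DCs, past the threshold and at least 2-fold in both, and a monocyte mean that reached 10 CPM. The LN levels were not compared in this choice. The LN CD11b+ DC libraries did enter the filter on low counts, and those of both LN subtypes the estimate of the spread. In LN CD11b+ against LN CD103+ DCs, 296 of the 1079 (27.4%) were higher in LN CD11b+ DCs, where 8.33% of all genes tested were, and 48 (4.45%) were lower, against 5.34%. Their median difference between the node subtypes was 0.37, and that of all genes was 0.01. The remaining 735 did not pass the threshold. Seen from the other side, 27.1% of the 1094 genes higher in LN CD11b+ than in LN CD103+ DCs were splenic monocyte genes.

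The median splenic monocyte gene had 27.3% of its monocyte level in LN CD11b+ DCs (quartiles 13.7% and 48.5%), 21.2% in LN CD103+ DCs, 22.5% in splenic CD4+ DCs and 19.9% in splenic CD8+ DCs, of which the splenic values follow from how the genes were chosen. The choice also shapes the node values and classes, since the monocyte libraries that chose the genes are their reference. Of the 1079, 812 (75.3%) were reduced in LN CD11b+ DCs, 80 (7.41%) kept, 34 (3.15%) lost, 21 (1.95%) higher and 132 in no class. Over the 8348 genes sorted above, 29.3% were reduced, 39.2% kept, 0.407% lost and 17.5% higher. Among the 296 that set LN CD11b+ DCs above LN CD103+ DCs, the median level was 15.9% of that in monocytes, and 3.89% in LN CD103+ DCs. In 264 of the 296, every monocyte library lay above every LN CD11b+ DC library and every one of these above every LN CD103+ DC library. The lower level in LN CD103+ DCs follows largely from the choice of the 296 by that difference. Apoe, Sirpb1c and Clec4a3, named here after their values were seen, are cases of it. Apoe, the lipid carrier apolipoprotein E, was at 1217 to 1712 CPM in monocytes, 334 to 748 CPM in LN CD11b+ DCs, with a mean of 135 CPM in LN CD103+ DCs. Sirpb1c, a relative of SIRPα, was at 390 to 443 CPM and 29.7 to 53.8 CPM, with 0.0557 CPM in LN CD103+ DCs. Clec4a3, a C-type lectin, was at 619 to 785 CPM and 114 to 200 CPM, with 1.06 CPM. Both belong to families of near-identical genes among which reads can be split.

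**Figure D4:**
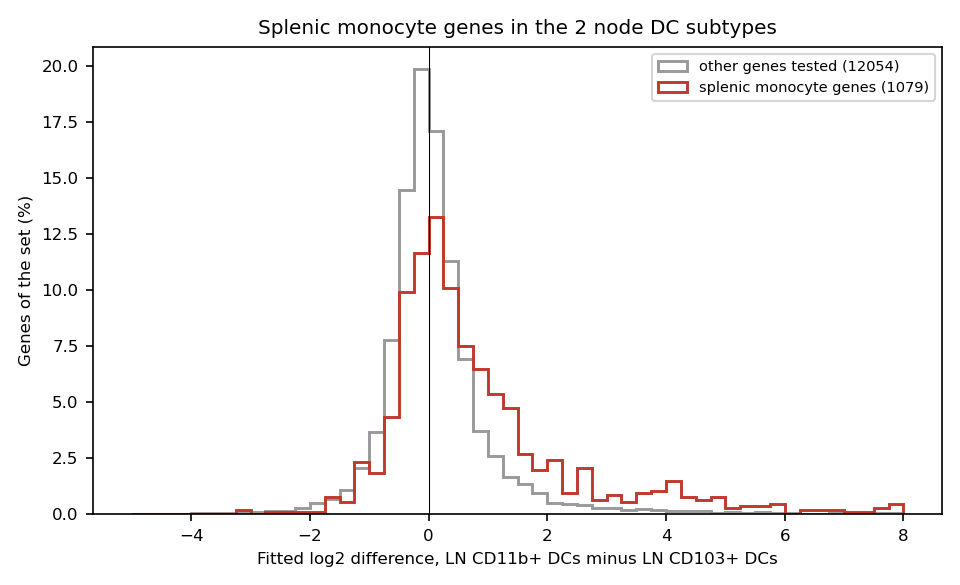
The fitted log2 difference of LN CD11b+ DCs minus LN CD103+ DCs is shown as the percentage of genes in bins of equal width, for the 1079 splenic monocyte genes in red and the other genes tested in grey, with values past either end drawn in the last bin. The splenic monocyte genes have a long tail toward LN CD11b+ DCs, in which 296 of them passed the threshold.

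Some splenic monocyte genes were kept in LN CD11b+ DCs, which means within 2-fold of the monocyte level and not the same level. The 10 kept splenic monocyte genes with the highest level in monocytes were Itm2b, Lamp1, Atp6v1b2, Cd44, Ikbkb, Idh1, Mbp, Mef2a, Rhog and Atp2b1. Their LN CD11b+ DC means ran from 71.0% (Mbp) to 113% (Lamp1) of the monocyte mean. In Itm2b, Atp6v1b2, Ikbkb and Rhog, every monocyte library lay above every LN CD11b+ DC library. Lamp1 (ENSMUSG00000031447, chr8:13159135-13175338), a membrane protein of lysosomes, was at 1064, 1164 and 1124 CPM in monocytes and 1427, 1401 and 958 CPM in LN CD11b+ DCs, with a 95% interval of the difference from -0.22 to 0.57. In splenic CD4+ DCs it was at 220 CPM and in splenic CD8+ DCs at 151 CPM. Cd44, the hyaluronan receptor, was at 610 to 664 CPM and 599 to 768 CPM (0.14 ± 0.20, adjusted p = 0.601), and at 152 and 217 CPM in the splenic DC subtypes. Atp6v1b2, a subunit of the proton pump of lysosomes, was at 609 to 696 CPM and 395 to 599 CPM. Ikbkb, the kinase that releases NF-κB, passed the threshold and was kept by the interval (-0.44 ± 0.17, adjusted p = 0.0363), and it did not pass without any one of 5 of the 6 libraries, all but monocyte replicate 2 (adjusted p from 0.0614 to 0.142). Atp6v1b2 passed as lower without LN CD11b+ DC replicate 2 (-0.56, adjusted p = 0.0427) and with limma on log2(TPM + 1) (-0.54, adjusted p = 0.00806). Mbp, or myelin basic protein, passed as lower without the same library (-0.74, adjusted p = 0.0205). Atp2b1, a calcium pump, did so without monocyte replicate 2 (-0.49, adjusted p = 0.0455). With limma on log2(TPM + 1), Mbp, Mef2a and Atp2b1 passed as lower too (adjusted p from 0.0154 to 0.0315). With the replicate number as a block in edgeR, Atp6v1b2 and Mbp did (adjusted p = 0.0371 and 0.0253). Rhog did in an edgeR fit over the 6 libraries alone (adjusted p = 0.0454). LN CD103+ DCs had these 10 genes as well, at means from 440 to 1465 CPM, and for none of the 10 was LN CD11b+ past the threshold above LN CD103+ DCs. Ikbkb, Mbp, Rhog and Atp2b1 were lower in LN CD11b+ than in LN CD103+ DCs. Of all 80 kept splenic monocyte genes, 8 were higher and 10 were lower in LN CD11b+ than in LN CD103+ DCs. Of the 812 reduced ones, 251 were higher and 29 lower. Among all genes tested, 8.33% were higher and 5.34% lower.

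As a background, 2669 of the 10630 genes with more than 1 CPM in both groups were lower in LN CD11b+ DCs and 2327 higher. Of 18 monocyte factors, all above 1 CPM in both groups, 14 were lower in LN CD11b+ DCs, 4 did not pass and none was higher, with a median of -1.15. Cebpb (ENSMUSG00000056501, chr2:167688915-167690418), a C/EBP factor of monocyte survival and inflammation, was the one that fell most, from 744, 730 and 785 CPM to 21.8, 8.90 and 8.87 CPM (-5.80 ± 0.33, adjusted p = 8.01e-10). Reads on 20.7% of its exon length could also count for an overlapping gene. Pou2f2, Nr4a1 and Klf2 were lower by 4.05, 3.44 and 2.55 (adjusted p at most 1.31e-04). Nr4a1, an orphan nuclear receptor needed by Ly6Clow monocytes, was at 2225 to 2452 CPM in monocytes and 110 to 323 CPM in LN CD11b+ DCs. Spi1, which encodes PU.1, the general factor of myeloid cells, was lower by 1.20 ± 0.18 (adjusted p = 2.71e-05), and at 196 to 247 CPM LN CD11b+ DCs were close to the 243 CPM of LN CD103+ DCs.

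Zeb2 and Maf were nearer to their monocyte levels in LN CD11b+ than in LN CD103+ DCs. Zeb2, a repressor required by several myeloid lineages, was at 677, 474 and 652 CPM in monocytes and 270, 331 and 307 CPM in LN CD11b+ DCs (-0.99 ± 0.32, adjusted p = 0.0150), against 17.1 CPM in LN CD103+ DCs. Its call against monocytes was lost without monocyte replicate 1 (adjusted p = 0.0524) or LN CD11b+ DC replicate 1 (adjusted p = 0.0543). Maf was kept, at 15.6 to 17.96 CPM and 12.4 to 20.01 CPM, and LN CD103+ DCs had 2.27 CPM.

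Across the 10630 genes with more than 1 CPM in both groups, 2327 were higher in LN CD11b+ DCs and 2669 lower. Of 16 DC factors, all above 1 CPM in both groups, 9 were higher in LN CD11b+ DCs, 5 were lower and 2 did not pass, with a median of 1.16. Those that rose most were Spib (6.17 ± 0.32), Zbtb46 (5.81 ± 0.20), Zeb1 (5.37 ± 0.33) and Relb (4.40 ± 0.22), all with adjusted p of at most 6.23e-10. Relb (ENSMUSG00000002983, chr7:19606217-19629438), the NF-κB subunit of mature DCs, was at 133, 104 and 109 CPM in monocytes and 2190, 2789 and 2310 CPM in LN CD11b+ DCs. Its partner Nfkb2 was at 221 to 265 CPM and 596 to 680 CPM (1.36 ± 0.16, adjusted p = 1.78e-06). Irf4, a factor of DC2, was higher by 1.21 ± 0.34 (adjusted p = 0.00697), and Irf8, a factor of monocytes and DC1, was lower by 1.10 ± 0.26 (adjusted p = 0.00157). The members that were lower were Nfil3, Bcl6, Notch2, Runx3 and Batf. The call of Runx3 was lost without monocyte replicate 2 (adjusted p = 0.0654) or LN CD11b+ DC replicate 2 (adjusted p = 0.0714), and that of Batf without any one of monocyte replicates 2 and 3 and LN CD11b+ DC replicates 1 and 2 (adjusted p from 0.0793 to 0.108).

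Promoters of 4 of these genes are shown because a core motif of a factor named above lies in them. The windows of 300 bases, from 250 before to 50 after the start of transcription, come from RefSeq on GRCm38.p6, the same assembly as mm10, and are written 5′ to 3′ on the strand of the gene. Itgam, reduced in LN CD11b+ DCs, holds the PU.1 core GAGGAAG, Ngp, lost there, holds the C/EBP core TTGCNNAA, Cybb, reduced there, holds the interferon-stimulated response element GAAANNGAAA and Nfkb2, higher there, holds the NF-κB core GGGNNTTTCC. Capitals mark every match on either strand (2, 2, 3 and 1 in this order), and each motif was searched on its own, so that matches of different motifs may share bases. RefSeq gives 3 such windows for Nfkb2, of which 1 is shown.
Itgam, chr7:128062390-128062689, plus strand: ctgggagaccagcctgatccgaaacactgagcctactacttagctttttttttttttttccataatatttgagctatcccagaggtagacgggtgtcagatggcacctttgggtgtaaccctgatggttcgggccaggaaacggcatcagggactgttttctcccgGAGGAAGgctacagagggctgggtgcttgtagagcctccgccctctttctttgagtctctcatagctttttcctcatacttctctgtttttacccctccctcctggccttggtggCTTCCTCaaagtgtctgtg
Ngp, chr9:110419558-110419857, plus strand: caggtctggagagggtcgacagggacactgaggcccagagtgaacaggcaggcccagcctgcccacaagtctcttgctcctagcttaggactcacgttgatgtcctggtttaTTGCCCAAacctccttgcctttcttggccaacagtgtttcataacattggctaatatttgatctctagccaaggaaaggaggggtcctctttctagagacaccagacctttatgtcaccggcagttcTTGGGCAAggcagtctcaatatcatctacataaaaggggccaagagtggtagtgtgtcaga
Cybb, chrX:9469275-9469574, minus strand: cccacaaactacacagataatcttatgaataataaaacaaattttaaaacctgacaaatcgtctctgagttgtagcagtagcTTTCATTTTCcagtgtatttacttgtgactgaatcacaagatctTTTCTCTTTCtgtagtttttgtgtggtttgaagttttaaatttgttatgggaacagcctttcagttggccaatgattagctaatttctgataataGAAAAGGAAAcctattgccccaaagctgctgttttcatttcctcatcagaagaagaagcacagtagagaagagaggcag
Nfkb2, chr19:46304487-46304786, plus strand: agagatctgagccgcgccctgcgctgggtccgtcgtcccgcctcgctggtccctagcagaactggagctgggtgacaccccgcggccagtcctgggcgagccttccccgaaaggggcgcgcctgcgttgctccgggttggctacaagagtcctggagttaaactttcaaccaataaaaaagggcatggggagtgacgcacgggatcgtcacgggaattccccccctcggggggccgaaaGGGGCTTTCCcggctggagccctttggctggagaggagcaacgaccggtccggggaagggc
Among the 12065 promoters found for 9470 of the 12945 tested genes with a symbol (73.2%), 13.9% held the PU.1 core, 8.56% the C/EBP core, 3.38% the interferon-stimulated response element and 1.72% the NF-κB core. A comparison of these shares between genes higher in either group is void, since under 80% of the genes had a promoter in the table. A match of letters is a description and not a site of binding.

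Receptors of growth factors and cytokines changed in both directions. Of 24 tested members, 1 (Il1r1) passed the filter through DCs only. Of the 23 with more than 1 CPM in both groups, 7 were higher in LN CD11b+ DCs, 11 lower, and 5 did not pass. The 10630 genes with more than 1 CPM in both groups held 2327 higher and 2669 lower ones. Flt3 (ENSMUSG00000042817, chr5:147330741-147400489) was higher by 3.60 ± 0.28 (adjusted p = 1.80e-08), and Kit, the receptor of stem cell factor, was at 81.3 to 127 CPM against 1.42 to 4.19 CPM. Csf2ra, the α chain of the receptor of granulocyte-macrophage colony-stimulating factor, fell from 836 to 979 CPM to 136 to 175 CPM (-2.58 ± 0.19, adjusted p = 5.71e-09). Csf2rb, its β chain, was at 259.8 to 345 CPM in monocytes and 369.5 to 717 CPM in LN CD11b+ DCs (0.87 ± 0.24, adjusted p = 0.00644), a call that was lost without LN CD11b+ DC replicate 2 (0.62, adjusted p = 0.0552). Csf2rb2, the related β chain that serves IL-3 alone, rose from 56.1 to 66.8 CPM to 267 to 374 CPM (2.399 ± 0.20, adjusted p = 1.89e-08), and reads may be shared between these near-identical β chain genes. Csf3r, the receptor of granulocyte colony-stimulating factor, was lower by 4.07 ± 0.43 (adjusted p = 1.08e-06). Il17ra (-3.82 ± 0.20), Tnfrsf1a (-3.36 ± 0.19), Il6ra (-2.91 ± 0.19) and Ifngr1 (-2.63 ± 0.18) were lower with adjusted p of at most 2.99e-09, and Il15ra (3.62 ± 0.22, adjusted p = 8.46e-10) and Il2rg (1.83 ± 0.30, adjusted p = 6.63e-05) were higher, of which Il2rg shares 30.5% of its exon length with another gene. Of the receptor chains of type I interferon, Ifnar2 was lower by 1.58 ± 0.22 (adjusted p = 1.19e-05). Ifnar1, at 243 to 274 CPM and 164 to 220 CPM, did not pass the threshold (-0.41 ± 0.20, adjusted p = 0.1), although its libraries did not overlap and it passed as lower with limma on log2(TPM + 1) (-0.55, adjusted p = 0.0113).

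Of 24 pattern recognition receptors and their adaptors, 22 had more than 1 CPM in both groups, and of these 14 were lower in LN CD11b+ DCs, 4 higher and 4 not past the threshold. Over all 10630 genes with that level in both groups, 2669 were lower and 2327 higher. Tlr7, Tlr8 and Tlr13, receptors of RNA in endosomes, fell. Tlr7 was at 200, 283 and 243 CPM in monocytes and 11.5, 12.1 and 15.8 CPM in LN CD11b+ DCs (-4.22 ± 0.28, adjusted p = 2.62e-09). Tlr8 was at 43.8 to 63.9 CPM and 2.88 to 4.52 CPM, and Tlr13, which senses bacterial ribosomal RNA, at 262 to 361 CPM and 32.3 to 45.6 CPM. Clec7a (dectin-1), Clec4e (mincle) and Nlrp3 were lower by 2.83, 3.35 and 3.07 (adjusted p at most 7.81e-05). Tlr11, a receptor of profilin, was higher, at 63.4 to 161 CPM against 5.29 to 12.3 CPM (3.70 ± 0.35, adjusted p = 1.38e-07), and Tlr1 was nearly 2-fold higher (0.97 ± 0.26, adjusted p = 0.00450). Tlr3 and Tlr9 were low in both groups and did not pass.

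Genes of phagocytosis and clearance split by product. Of 24 members Tyro3 stayed below the filter, and 3 (Marco, Gas6 and Timd4) passed it through DCs only. Of the 17 with more than 1 CPM in both groups, 10 were lower, 3 higher and 4 not past the threshold. By comparison, 2669 of all 10630 genes with more than 1 CPM in both groups were lower and 2327 higher. The genes of complement C1q rose. C1qb (ENSMUSG00000036905, chr4:136880129-136886187) was at 6.57, 8.00 and 6.45 CPM in monocytes and 279, 201 and 134 CPM in LN CD11b+ DCs (4.86 ± 0.32, adjusted p = 2.29e-09), C1qc rose from 3.09 to 3.33 CPM to 73.2 to 145 CPM, and C1qa from 0.386 to 2.29 CPM to 39.9 to 69.5 CPM. LN CD103+ DCs had 13.2, 9.32 and 2.83 CPM of these 3 genes. C1q is known from tissue macrophages, whose list of 14 markers summed to 659 to 922 CPM in LN CD11b+ DCs and to 780 to 1016 CPM in monocytes, most of it Chil3 in the latter. The members of that list went both ways. Siglecf was at 0 to 0.146 CPM in LN CD11b+ DCs, Cd163 at 0.444 to 2.04 CPM and Siglec1 at 9.76 to 11.9 CPM, below the 29.4 to 36.9 CPM of monocytes. Vcam1 was the most abundant of the list in LN CD11b+ DCs, with a mean of 265 CPM. Mertk, Vcam1 and Fabp4 were higher in LN CD11b+ DCs than in monocytes, and Marco and Timd4 had passed the filter through the DCs only. The part of macrophages in the C1q values was not tested. The scavenger receptor Msr1 fell by 2.09 ± 0.31 (adjusted p = 2.15e-05) and Cd68, a lysosomal glycoprotein, by 2.04 ± 0.23 (adjusted p = 1.36e-06). Trem2, a lipid-sensing receptor, had 3.77 to 11.3 CPM left of 72.4 to 75.3 CPM. Of the lysosomal proteases, Ctss was kept (2258 to 2440 CPM and 2152 to 2504 CPM), Ctsb was lower by 1.23 ± 0.20 (adjusted p = 6.94e-05) and Ctsd higher by 1.08 ± 0.23 (adjusted p = 7.86e-04).

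The genes of DC maturation and migration were higher in LN CD11b+ DCs. All 29 members of that list were tested and higher in LN CD11b+ DCs, of which 11 had passed the filter through the DCs only and so had to differ. The 14 with more than 1 CPM in both groups were higher as well. This held for 2327 of all 10630 genes with more than 1 CPM in both groups. Since the list was written with earlier results of these data known, these counts describe its members and are no test. Ccr7 (ENSMUSG00000037944, chr11:99144196-99155077), the receptor that guides DCs to the T cell zone, was at 7.34, 4.38 and 6.96 CPM in monocytes and 2157, 2285 and 2503 CPM in LN CD11b+ DCs (8.56 ± 0.31, adjusted p = 1.26e-11). Fscn1 (ENSMUSG00000029581, chr5:142960343-142973185), or fascin, which bundles actin in the dendrites of mature DCs, was at 4.44, 1.14 and 1.29 CPM and 3179, 4034 and 2293 CPM (10.58 ± 0.43, adjusted p = 1.92e-11). The chemokines Ccl5 and Ccl22, which draw T cells, lay at 1864 to 2245 CPM and 561 to 801 CPM in LN CD11b+ DCs and at 4.51 to 9.85 CPM and 0.193 to 1.33 CPM in monocytes. None of the 29 was higher in LN CD11b+ than in LN CD103+ DCs past the threshold and 9 were lower, among them Ccl5, Il12b and Itgb8. Across all genes tested, the shares were 8.33% higher and 5.34% lower. Il12b, the shared subunit of IL-12 and IL-23, had no count in monocytes, 40.6 to 82.9 CPM in LN CD11b+ DCs, with a mean of 474 CPM in LN CD103+ DCs.

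Among 14 chemokine receptors, Ccr10, Cxcr2 and Ackr3 stayed below the filter and 3 (Ccr6, Cxcr5 and Xcr1) passed it through DCs only. Only 5 of the 11 tested had more than 1 CPM in both groups, and of these Ccr7 was higher and 4 did not pass, Ccr1, Cxcr4 and Ccrl2 among them. In all, 5634 of the 10630 genes with more than 1 CPM in both groups did not pass and 2327 were higher. Ccr1 passed as lower without monocyte replicate 1 (-1.30, adjusted p = 0.0380) or LN CD11b+ DC replicate 1 (-1.71, adjusted p = 0.00902). In edgeR it also did so without the filter on low counts (adjusted p = 0.0132) and with the replicate block (adjusted p = 0.0387). With limma on log2(TPM + 1) it passed as lower too (adjusted p = 0.0189). Cxcr4 passed as higher in an edgeR fit over the 6 libraries alone (0.67, adjusted p = 0.0167). Cxcr5, which leads to B cell follicles, was at 15.2 to 31.3 CPM in LN CD11b+ DCs and 0 to 0.286 CPM in monocytes, and Xcr1, the receptor of DC1, at 2.63 to 7.76 CPM against 55.4 CPM in LN CD103+ DCs.

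For antigen presentation, 21 of 22 members were tested (Tnfsf4 stayed below the filter), and of the 20 with more than 1 CPM in both groups 16 were higher in LN CD11b+ DCs, 1 was lower and 3 did not pass. The counts for all 10630 genes with that level in both groups were 2327 higher and 2669 lower. The MHC class II genes are members of the list, but both populations had been gated on that protein, so their rise (2.68 ± 0.24 for H2-Aa) is no finding. Cd83 was at 63.4 to 115 CPM in monocytes and 885 to 1797 CPM in LN CD11b+ DCs (4.03 ± 0.28, adjusted p = 4.93e-09), Icosl at 39.8 to 43.5 and 579 to 770 CPM (3.99 ± 0.21, adjusted p = 1.63e-10), Cd274, the ligand of PD-1, at 39.2 to 46.0 and 293 to 375 CPM (3.01 ± 0.20, adjusted p = 1.82e-09) and Cd40 at 79.0 to 94.1 and 512 to 826 CPM (2.96 ± 0.23, adjusted p = 1.59e-08). Cd80 and Cd86, the ligands of CD28, rose by less (1.13 ± 0.30 and 1.05 ± 0.24, adjusted p = 0.00410 and 0.00156). March1, the ubiquitin ligase that removes MHC class II and CD86 from the surface, was the member that fell, from 100, 121 and 105 CPM to 26.4, 20.1 and 16.9 CPM (-2.35 ± 0.38, adjusted p = 6.65e-05). H2-DMa and H2-DMb1, which load peptides on MHC class II, did not pass the threshold. H2-DMa passed as lower in an edgeR fit over the 6 libraries alone (-0.45, adjusted p = 0.0456).

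Toward LN CD11b+ DCs, the largest fitted fold changes were those of Akap2, Pakap, Serpinb6b, Dscaml1, Synpo2, Il2ra, Socs2 and Cacnb3. Akap2 and Pakap overlap (84.4% and 98.2% of their exon length), and their reads cannot be told apart. Serpinb6b, a serine protease inhibitor, had no count in monocytes and 277, 355 and 374 CPM in LN CD11b+ DCs, at least 2619-fold higher. Il2ra, the α chain of the IL-2 receptor, had no count in monocytes and 167, 170 and 205 CPM in LN CD11b+ DCs, at least 1413-fold higher, and LN CD103+ DCs had 86.4 CPM (lower by 1.07, adjusted p = 0.0155). T cells can carry this receptor too, and the 3 LN CD11b+ DC libraries had 3.85 to 5.99 CPM of Trac. The part of T cells in Il2ra was not tested. Socs2, a suppressor of cytokine signalling, had 2 counts in monocytes and 1094, 1460 and 659 CPM in LN CD11b+ DCs, a ratio of 12550 with a 95% counting interval of 3474 to 103628. Cacnb3, a calcium channel subunit, had 2 counts in monocytes and 709 to 1065 CPM in LN CD11b+ DCs.

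The list of genes that monocytes and DC2 are known to share showed both sides. Of 24 members, Fcer1a stayed below the filter, and of 22 with more than 1 CPM in both groups 12 were lower in LN CD11b+ DCs, 7 higher and 3 not past the threshold. All 10630 genes with more than 1 CPM in both groups gave 2669 lower and 2327 higher. Set against LN CD103+ DCs, 18 of the 23 tested members were higher in LN CD11b+ DCs and 1 was lower, with a median of 4.09. Against the same subtype, 8.33% of all genes tested were higher in LN CD11b+ DCs and 5.34% lower. Sirpa, the receptor of CD47, had 599 to 625 CPM in LN CD11b+ DCs, 1175 to 1351 CPM in monocytes and 12.5 CPM in LN CD103+ DCs. Mgl2, a galactose-binding lectin of DC2, was higher than in monocytes (2.84 ± 0.61, adjusted p = 0.00107), at 25.3 to 58.5 CPM against 4.76 to 6.58 CPM, and was at 0.961 CPM in LN CD103+ DCs. Clec10a, a closely related lectin, was at 31.5 to 37.7 CPM in monocytes and 14.3 to 24.5 CPM in LN CD11b+ DCs (-0.95 ± 0.44, adjusted p = 0.0827), and at 0.702 CPM in LN CD103+ DCs. It passed as lower in an edgeR fit over the 6 libraries alone (adjusted p = 0.00436) and with limma on log2(TPM + 1) (adjusted p = 0.0388). In edgeR it also did so without the filter on low counts (adjusted p = 0.011) and with the replicate block (adjusted p = 0.0175). Cst3, or cystatin C, was higher than in monocytes (1.29 ± 0.21, adjusted p = 4.63e-05) and lower than in LN CD103+ DCs by 1.27 (adjusted p = 3.39e-04).

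**Figure D5:**
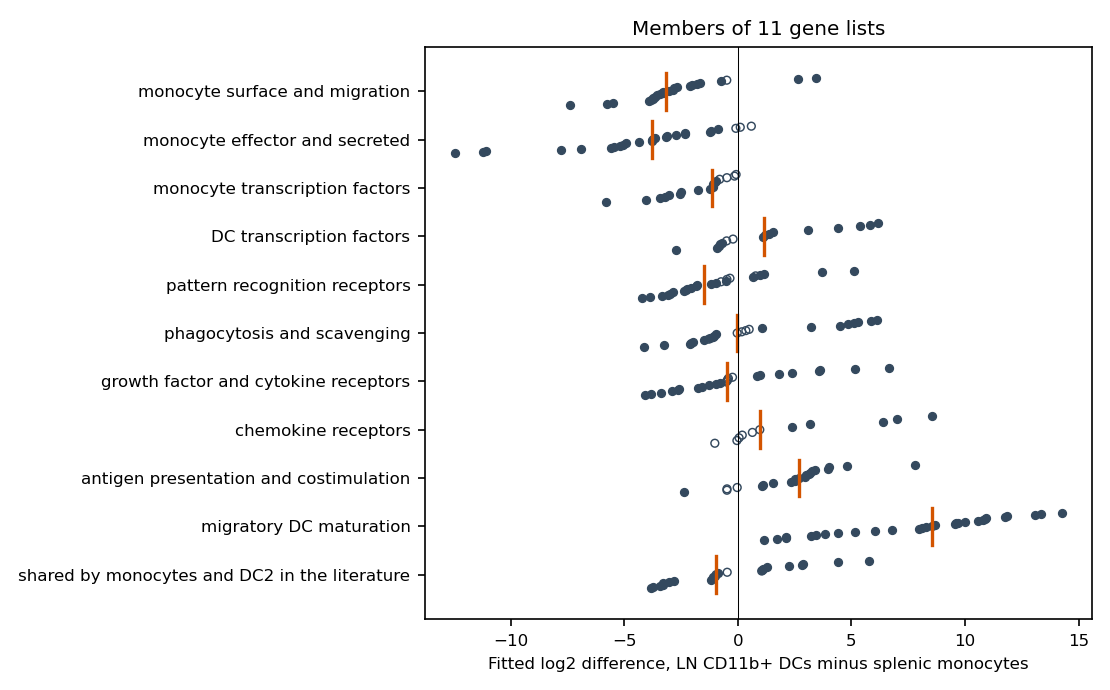
Each point is a tested member of 1 of 11 gene lists, placed by its fitted log2 difference of LN CD11b+ DCs minus splenic monocytes, filled if past the threshold (adjusted p under 0.05) and open if not, with the median of the list as an orange line. Monocyte surface and effector genes lie mostly below 0 (medians -3.16 and -3.75), the maturation list lies above 0 (median 8.56), and receptors and clearance genes spread over both sides. The lists were written with earlier results of these data known, so the medians are a description.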

How the data were processed

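The authors deposited whole-number read counts for each gene and TPM for the same libraries (mm10, Ensembl release 75). Reads of at least 30 bases had been aligned with STAR 2.4.0j and counted with featureCounts of Subread 1.5.2 without regard to strand, with a read allowed to count for every gene that held 0.5 or more of it, so that overlapping genes share reads. Each library was amplified cDNA from a pool of 5 mice, and p values measure the spread between such pools. Counts were fitted in edgeR 4.0.16 (R 4.3.3) over all 15 libraries with TMM scaling, a quasi-likelihood test and Benjamini-Hochberg adjustment, with 10 residual degrees of freedom, and the fit was tested on simulated data. There, most genes set to differ 4-fold were called and most set to differ 2-fold were missed. A gene that did not pass may therefore still differ. CPM used TMM-scaled totals. The deposited TPM were used for levels compared between genes and, as log2(TPM + 1), in limma 3.58.1 as an alternative. DESeq2 1.42.0, other scalings and filters, and leaving out each library were the other alternatives.

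The groups, gene lists and tests were chosen with earlier results of these data known. Genes were named if they were list members with a textbook role, among the 8 that changed most by the fit in either direction (mean of 10 CPM or more where higher, libraries not overlapping), or among the 10 kept and 5 lost splenic monocyte genes of the highest monocyte level. Symbols came from GENCODE vM21 for 96.6% of identifiers, and promoters from RefSeq (GRCm38.p6). Some members of the lists enter the counts and medians but are not reported here by name.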

Additional observations from a re-analysis of the deposited data

How the results depend on the processing

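Of 68 counts of genes recomputed for the 5 comparisons, 67 stayed within 1.5 times the reported count. The exception was the number of kept genes, which fell from 3271 to 700 when the 95% interval had to lie within 1.5-fold rather than 2-fold, by construction of the limit. Without one library at a time, the genes called between LN CD11b+ DCs and monocytes numbered 5648 to 6126, those between the node subtypes 1395 to 1659, those between monocytes and splenic CD4+ DCs 5550 to 6663, the splenic monocyte genes 1046 to 1081 and the kept genes 2658 to 2979. The share of called genes higher in LN CD11b+ DCs ranged from 46.1% to 56.8% over the alternatives. Limma on log2(TPM + 1) moved the median difference of all genes from 0.02 to -0.11. No named gene reversed. Another call arose in at least one alternative for 24 of the 153 named genes. DESeq2 did not call C5ar1 (-1.65, adjusted p = 0.257), Arhgef37 (-9.64, adjusted p = 0.0629) or Mpo (-6.73, adjusted p = 0.23), and the cause was not tested.

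Same-numbered replicates carried only a number in common, with correlations of their deviations of -0.0187, -0.0106 and 0.0465. With the replicate number as a block, 7071 genes were called between LN CD11b+ DCs and monocytes, against 6556 without the block. Organ, cohort, gate and runs per library could not be separated from subtype. Depth limits mainly genes near 1 CPM, and LN CD11b+ DC replicate 3 held the fewest reads.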

Other observations

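In 21 of the 1079 splenic monocyte genes, LN CD11b+ DCs were higher than monocytes and not lower, and the genes below were picked from them after their values were seen. Fas, the death receptor, was at 41.0, 41.7 and 38.8 CPM in monocytes and 133, 185 and 276 CPM in LN CD11b+ DCs (2.29 ± 0.24, adjusted p = 4.94e-07 by edgeR's quasi-likelihood test), while the splenic CD4+ and CD8+ DCs had means of 15.5 and 13.2 CPM. Gbp2, a GTPase induced by interferon, was at 100 to 102 CPM in monocytes and 364 to 447 CPM in LN CD11b+ DCs. LN CD103+ DCs had 180 CPM of Fas and 527 CPM of Gbp2, so that both genes were also present in the second node subtype. Fabp4, a fatty acid carrier, was unlike them, with 29.2 to 59.5 CPM in LN CD11b+ DCs, 8.64 to 13.9 CPM in monocytes and 2.64 CPM in LN CD103+ DCs, and it was higher in LN CD11b+ than in LN CD103+ DCs past the threshold (adjusted p = 2.06e-05).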
